A study of Mus musculus with 6 samples.

Results

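The genes described here are the solute carriers other than the transporters of transmitters: every gene of the deposited table whose symbol begins with Slc, a family number and the letter a, apart from the Slc1a, Slc6a, Slc17a and Slc32a genes. This rule used names only and gave 239 of the 15705 genes in the table, in 42 families. It keeps the vesicular amine carriers Slc18a1 and Slc18a2, and it takes only the Slc35a branch of the Slc35 family. Among the 239 are 5 symbols of genes that are not themselves transporters: Slc2a4rg-ps, Slc4a1ap, Slc7a6os, Slc9a3r1 and Slc9a3r2.

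The study compared cultured cortical neurons of C57BL/6 mouse embryos (embryonic day 18). At day 7 in culture the cells received lentivirus for 3 days, either the control vector FCK1.3GW, whose construct is listed with EGFP, or FCK1.3GW-N40K, listed with N40K in that place. A short CaMKII promoter, active in excitatory neurons, drove both. N40K is an N-terminal piece of U1-70K, a protein of the U1 snRNP, and the series asks how U1 snRNP dysfunction of Alzheimer's disease affects neurons. Each group had 3 libraries of poly(A) RNA. Separate cultures are not stated for them, so the p-values rest on the spread among these libraries, which may be technical. The measurement is the authors' score Sd, 1 linear ratio per gene and library, taken here as a score of splicing deficiency that is higher where splicing is less complete. Its formula is not stated, and more unspliced RNA and less spliced RNA cannot be told apart in it.

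Solute carriers are membrane proteins that move ions, nutrients, metals and metabolites across the plasma membrane or the membranes of organelles, mostly by coupled exchange or along gradients. In neurons they supply glucose, lactate and amino acids, set chloride and pH, fill vesicles with zinc and connect the mitochondrial matrix with the cytosol. The U1 snRNP recognises the start of introns by pairing with the last bases of the exon and the bases that open the intron.

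Scores of the carriers covered the range of most genes. Mean control scores ran from 0.0003 for Slc24a3, a potassium-dependent sodium-calcium exchanger, to 4.36 for Slc23a1, an ascorbate transporter, with a median of 0.0152 beside 0.0133 for all genes. The median score of a library over the 239 genes was 0.015 ± 0.000586 in control and 0.0179 ± 0.00171 in N40K libraries (SD, n = 3), and over all genes 0.0132 ± 0.000458 and 0.0154 ± 0.000854. Replicates of a typical carrier had a coefficient of variation of 10.5% in control and 13% in N40K libraries. Read depth per library is unknown. Of the 23 marker symbols of brain cell types, 17 had a score, which is no measure of expression. Their scores rose for Camk2a of neurons, Slc1a2 of astrocytes and Csf1r of microglia and fell for Mog of oligodendrocytes, and the part of this in the results was not tested. In bulk libraries a smaller number of cells of a type and less RNA per cell cannot be told apart.

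Many carriers had higher scores in N40K neurons and few had lower ones, in the same proportion as genes at large. Of the 239 carriers, 52 rose and 9 fell (limma, Benjamini-Hochberg adjusted p under 0.05 over all genes), or 21.8% and 3.77%, where 21.5% of all genes rose and 4.11% fell. At an unadjusted p under 0.05 there were 81 rises and 18 falls, beside 31.2% and 7.32% of all genes. The N40K scores were all above the control scores in 80 carriers (33.5%, beside 33.6% of all genes) and all below in 28 (11.7%, beside 8.67%). The median ratio of mean scores, N40K to control, was 1.11 for the carriers and 1.11 for all genes. Of the 239 carriers 19 were called higher and at least 2-fold, beside 6.48% of all genes. As a part of the rises this was 19 of 52, beside 1017 of 3372 among all genes. The median ratio was 1.76 among the carrier rises and 0.621 among the falls. Without the 5 genes that are not transporters, 51 of 234 rose and 9 fell. The counts by role and family below were not tested against the shares of all genes.

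The balance of rises and falls depended on how libraries were scaled. Centring each library on its median log2 score, which moved the median change of all genes by -0.13, gave 25 rises and 50 falls among the carriers. Quantile normalization gave 33 and 36, while centring by the median deviation from the gene means gave 39 and 24. Over all 15705 genes the same 3 scalings gave 1531 rises and 2883 falls, 2022 and 1883, and 2235 and 1518. The counts of roles and families under the scalings below stand beside these and were not tested against them. Among the carriers no rise became a called fall and no fall a called rise under these scalings. Leaving out 1 library gave 27 to 56 rises and 4 to 9 falls. Of the 52 rises, 16 stayed called without each library in turn and under the 3 scalings, among them Slc2a12, Slc4a7, Slc4a8, Slc16a14, Slc20a1, Slc25a40, Slc30a3, Slc30a5, Slc33a1, Slc38a7, Slc45a1, Slc45a4 and Slc46a3. Of the 9 falls, the 4 that stayed called were Slc7a6, Slc13a3, Slc25a44 and Slc37a2.

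**Figure D1:**
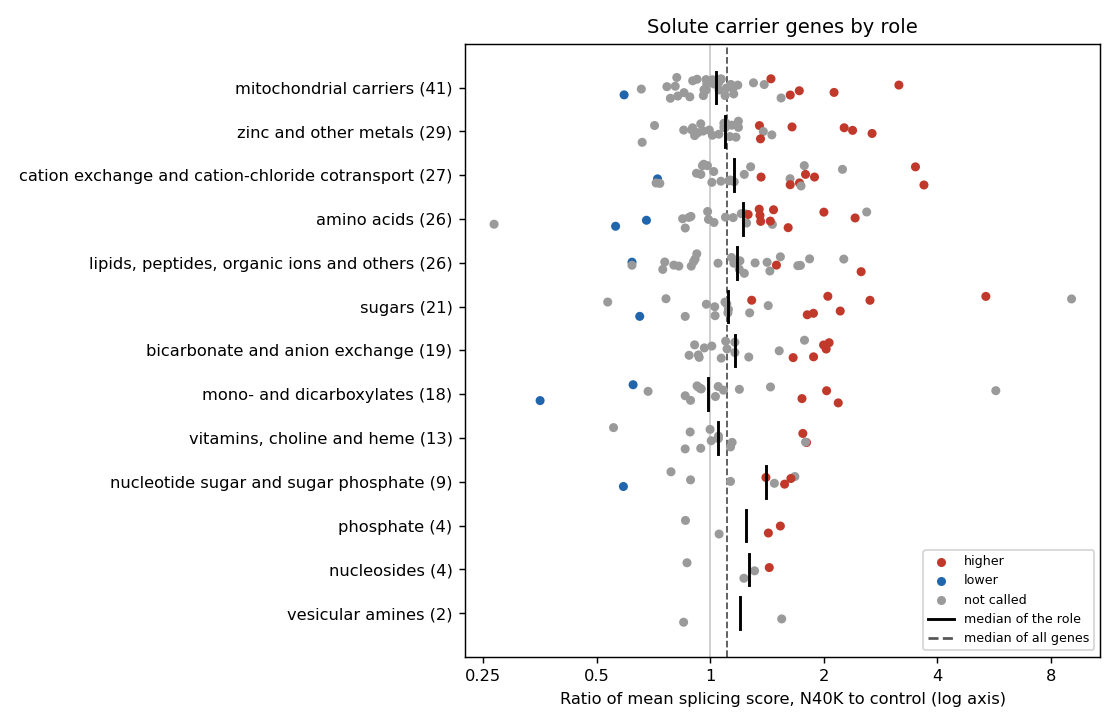
Ratio of mean splicing score, N40K to control, on a log axis for each of the 239 solute carriers, grouped by role with the number of genes in brackets. Red points are genes called higher, blue points genes called lower, grey points genes that did not pass, black bars the median of a role, and the dashed line the median of all genes at 1.11. Role medians ran from 0.99 for mono- and dicarboxylates to 1.41 for nucleotide sugar and sugar phosphate carriers.

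Slc30a3 and Slc7a6 gave a rise and a fall in which replicates lay close together, apart from N40K 3 of Slc30a3, which was higher. Slc30a3 encodes ZnT3, which loads zinc into the vesicles of glutamatergic synapses. Its scores were 0.0219, 0.0217 and 0.0205 in control libraries and 0.0515, 0.0516 and 0.0693 in N40K libraries. The groups did not overlap, and the mean rose 2.69-fold, a log2 change of 1.09 ± 0.12 (SE, limma adjusted p = 0.00379). By annotation Slc30a3 overlaps Dnajc5g and Gm9924 on the opposite strand. Slc7a6 encodes y+LAT2, an exchanger of basic and neutral amino acids. Its scores were 0.0266, 0.0272 and 0.0233 in control libraries and 0.0141, 0.0146 and 0.0146 in N40K libraries, a ratio of 0.562 and a log2 change of -0.55 ± 0.06 (SE, limma adjusted p = 0.00477). All N40K values lay below all control values, and Slc7a6 overlaps no other gene in the annotation.

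The last 12 bases of the coding exons of these 2 genes that precede an intron are printed because U1 pairs with the end of the exon. They were read from the GENCODE M21 transcript with the longest coding sequence, 5′ to 3′, and the capitals mark the 3 exonic bases of the splice site; exons whose end lies outside the coding sequence are left out.
Slc30a3 exon 1: gcgattgaaGAG
Slc30a3 exon 2: gggaggtggTTG
Slc30a3 exon 3: ggcaccgctCAG
Slc30a3 exon 4: tgccaatctGCT
Slc30a3 exon 5: atctacttcAAG
Slc30a3 exon 6: tcctcatggAAG
Slc30a3 exon 7: acctggctaTTG
Slc7a6 exon 2: ctgcctgcgTAT
Slc7a6 exon 3: aactgtgtcAGG
Slc7a6 exon 4: aaacccagaAAG
Slc7a6 exon 5: gctgtggctGTG
Slc7a6 exon 6: tgcttcatcAAG
Slc7a6 exon 7: ttactgttcAAT
Slc7a6 exon 8: cgacctctcAAG
Slc7a6 exon 9: ggaatgtgcTGG
In Slc30a3, which rose, 4 of 7 ends closed with AG, and in Slc7a6, which fell, 3 of 8 did. The score is 1 value per gene, so it does not say at which of these introns splicing differed. Over the 234 carriers with such ends, 49.8% of 2356 exon ends closed with AG, beside 56.1% of 147949 ends in 13255 genes of the table. The end AAG made up 13.7% of carrier ends and 19.4% of all ends, while CAG made up 24.5% and 23.7%. Within the carriers the share of AG was 48.3% in those that rose, 50.9% in those that fell and 50.2% in the others. These shares are descriptions of the letters, and the ends of 1 gene share that gene.

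Metal carriers include the zinc exporters and vesicle loaders of the Slc30 family, the zinc importers of the Slc39 family, and carriers of iron, copper and magnesium. Of 29 such genes, 6 rose (20.7%, beside 21.5% of all genes) and 0 fell (beside 4.11%), with a median ratio of 1.1. At an unadjusted p under 0.05 (limma) 9 rose and 1 fell. With libraries centred on their medians 3 rose and 6 fell, and after quantile normalization 4 and 4. Of the 7 Slc30 genes 3 rose, where 21.5% of all genes rose: Slc30a3, Slc30a5 and Slc30a9. The call of Slc30a9 (1.35-fold, limma adjusted p = 0.0224) ended without any control library (highest adjusted p = 0.0802) and under each of the 3 scalings, with a log2 change of -0.0023 after centring on the library median (0.958). Slc30a5, which moves zinc into the secretory pathway, had scores of 0.0061, 0.0057 and 0.0059 in control and 0.0084, 0.0106 and 0.0102 in N40K libraries, a rise of 1.65-fold (limma adjusted p = 0.0109). Its groups did not overlap.

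The 14 Slc39 genes had a median ratio of 1.02, beside 1.11 for all genes, with 1 rise, where 21.5% of all genes rose. The rise was in Slc39a10, a zinc importer of the plasma membrane, from 0.0045, 0.0037 and 0.004 to 0.0049, 0.006 and 0.0057 (limma adjusted p = 0.0392). The groups lay next to each other, the call ended without any library other than N40K 1 (highest adjusted p = 0.118), and it ended under each of the 3 scalings. Slc39a2 had scores of 0.3951, 0.3839 and 0.497 in control and 0.3481, 0.2736 and 0.2212 in N40K libraries, without overlap, and did not pass (limma adjusted p = 0.0725). After centring on the library median 5 Slc39 genes fell and 0 rose, where 2883 of all 15705 genes fell and 1531 rose. Slc40a1, the iron exporter ferroportin, rose from 0.0123, 0.0182 and 0.0231 to 0.0459, 0.0348 and 0.0473, which is 2.39-fold (limma adjusted p = 0.0155). All its N40K values lay above the highest control value, and the call ended without control 2 (adjusted p = 0.0536). The magnesium transporter gene Slc41a2 rose 2.27-fold, from a mean of 0.00137 to 0.0031 (limma adjusted p = 0.00199), a call that ended after centring on the library median (0.163).

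The Slc25 family carries metabolites, nucleotides and cofactors through the inner mitochondrial membrane. Of its 41 genes 5 rose (12.2%) and 1 fell, where 21.5% of all genes rose, and the median ratio was 1.03. Whether the Slc25 share differs from that of other genes was not tested. Centring on the library median gave 3 rises and 7 falls, and quantile normalization 3 and 6. Slc25a40, a carrier of glutathione, rose from 0.0145, 0.0117 and 0.0139 to 0.0259, 0.03 and 0.0296, a log2 change of 0.72 ± 0.08 (SE, limma adjusted p = 0.00389). Its lowest N40K value was well above the highest control value.

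Slc25a45 had the largest ratio of the family, 3.17, with control values of 0.0121, 0.02 and 0.0072 and N40K values of 0.044, 0.0314 and 0.0491 (limma adjusted p = 0.0185). Its control libraries differed among themselves by more than those of Slc25a40, and the call was lost on leaving out control 1, control 3 or N40K 3 (adjusted p up to 0.0596). The other rises were Slc25a32, a carrier of folate and FAD, at 1.63-fold, and Slc25a46, a protein of mitochondrial shape, at 1.45-fold. Each of these 2 calls ended without 4 of the 6 libraries and after quantile normalization: Slc25a32 without control 2, control 3, N40K 1 or N40K 2 (highest adjusted p = 0.0862), and Slc25a46 without any control library or N40K 2 (0.103). The fall was in Slc25a44, a carrier of branched-chain amino acids, from 0.0097, 0.0078 and 0.0087 to 0.0057, 0.0054 and 0.0044, a ratio of 0.592 (limma adjusted p = 0.0128) with no overlap.

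Several mitochondrial carriers known for their part in neuronal energy and glutamate metabolism did not pass. Slc25a4, an adenine nucleotide translocator, had 0.0036, 0.0041 and 0.0043 in control and 0.0031, 0.0032 and 0.0034 in N40K libraries; all N40K values were lower, and it did not pass (limma adjusted p = 0.0608). The aspartate-glutamate carrier gene Slc25a12 had means of 0.0019 ± 0.000173 and 0.0021 ± 0.000436 (SD, n = 3), and the glutamate carrier gene Slc25a22 had 0.069 ± 0.00464 and 0.0673 ± 0.00356. Their groups overlapped. Adenine nucleotide translocator genes have processed copies in the genome, so the scores of Slc25a4 and Slc25a5 are uncertain if such copies took part of their reads.

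Cation exchangers and cation-chloride cotransporters set pH, calcium and chloride. Of 27 such genes 7 rose (25.9%, beside 21.5% of all genes) and 1 fell (3.7%, beside 4.11%), with a median ratio of 1.16. Without Slc9a3r1 and Slc9a3r2, which are not transporters, it was 7 and 1 of 25 with a median ratio of 1.23. Centring on the library median gave 5 and 8, and quantile normalization 6 and 6. The 11 genes with an Slc9 symbol had 5 rises, and the 9 of them that encode sodium-proton exchangers had the same 5, with a median ratio of 1.79. Whether the Slc9 share differs from that of all genes, 21.5%, was not tested. The 11 had 0 falls, 4 rises and 2 falls after centring on the library median, and 5 and 1 after quantile normalization.

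Slc9a3, an exchanger best known from gut and kidney, rose from 0.0758, 0.0546 and 0.0923 to 0.191, 0.1875 and 0.4437, a log2 change of 1.66 ± 0.37 (SE, limma adjusted p = 0.0246). The value of N40K 3 was far above the other N40K values, and the call ended without any of the control libraries (highest adjusted p = 0.0807). Slc9a2 rose 3.51-fold, from 0.0033, 0.0057 and 0.0092 to 0.0188, 0.027 and 0.018 (limma adjusted p = 0.0129), and the call ended without control 2 (0.0503). Slc9a8 rose 1.63-fold but was not called without control 3 (adjusted p = 0.0523). Slc9a9, of endosomes, rose 1.89-fold, a call that ended without any library other than N40K 1 (highest adjusted p = 0.0813). The call of Slc9a9 also ended after centring on the library median (limma adjusted p = 0.119).

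The chloride cotransporters of the Slc12 family set the chloride level of neurons. Slc12a5, the exporter KCC2 that keeps neuronal chloride low, had 0.009, 0.0086 and 0.0095 against 0.0094, 0.0105 and 0.0105 (limma adjusted p = 0.231), and its groups overlapped. Slc12a2, the importer NKCC1, had 0.0089, 0.0083 and 0.0092 against 0.0099, 0.0106 and 0.0101, without overlap, and did not pass (0.109). Slc12a1, the kidney form of the importer, fell, with a ratio of 0.726 (limma adjusted p = 0.0277), a call that ended when any library was left out (highest adjusted p = 0.0837).

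Of the calcium exchangers of neurons, the best known did not pass. Slc8a1, the sodium-calcium exchanger NCX1, had 0.0011, 0.0011 and 0.001 in control and 0.0012, 0.0015 and 0.0014 in N40K libraries (limma adjusted p = 0.0821), values near the last decimal of the score. The potassium-dependent exchanger gene Slc24a2 had means of 0.00803 ± 0.001 and 0.0099 ± 0.000854 (SD, n = 3; adjusted p = 0.13). Slc24a5, known from pigment cells, rose 1.37-fold (limma adjusted p = 0.0138). It was not called without control 1 or control 3 (highest adjusted p = 0.054) and after quantile normalization (0.0864).

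Of 19 genes in the group of bicarbonate and anion carriers, the Slc4 and Slc26 families, 5 rose (26.3%, beside 21.5% of all genes). Of these, Slc4a1ap is not a transporter, and without it 4 of 18 rose. None of the 19 fell (limma; 0 also at an unadjusted p under 0.05), while 3 fell and 2 rose after centring on the library median and 1 fell and 3 rose after quantile normalization. Slc4a7, a sodium bicarbonate cotransporter, rose 2.07-fold, from 0.0042, 0.0034 and 0.004 to 0.007, 0.0077 and 0.0093 (limma adjusted p = 0.00736). Slc4a8, a sodium-driven chloride bicarbonate exchanger, rose 1.66-fold, from 0.0063, 0.0052 and 0.0062 to 0.0096, 0.0088 and 0.011 (0.0125). In both the groups were apart. Slc4a10, a related acid extruder of neurons, had means of 0.001 ± 0.0001 and 0.00127 ± 5.77e-05 (SD, n = 3); its N40K values were all higher but it did not pass (limma adjusted p = 0.0677). Slc26a7 rose 2.03-fold (limma adjusted p = 0.0294), a call that ended without any library other than N40K 1 (highest adjusted p = 0.0852). It also ended after centring on the library median (0.0528) and quantile normalization (0.058).

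Amino acid carriers held rises and falls. Of 26 genes 9 rose (34.6%, beside 21.5% of all genes) and 2 fell (7.69%, beside 4.11%), with a median ratio of 1.22. Without Slc7a6os, which is not a transporter, 9 of 25 rose and 2 fell, with a median ratio of 1.24. But centring on the library median gave 1 rise and 8 falls, and quantile normalization 3 and 7. Slc38a7, a lysosomal exporter of glutamine and asparagine, rose from 0.009, 0.0076 and 0.009 to 0.0158, 0.016 and 0.0195, a log2 change of 0.55 ± 0.07 (SE, limma adjusted p = 0.00595), with no overlap. Slc38a2, a glutamine importer, rose 1.35-fold from a mean of 0.0325 to 0.0438 (limma adjusted p = 0.0241). This call ended without any library other than N40K 1 (highest adjusted p = 0.0765) and after quantile normalization (0.0534). Slc38a1, the related importer of neurons, had means of 0.00397 ± 0.000208 and 0.00457 ± 0.000208 (SD, n = 3), all N40K values higher, and did not pass (limma adjusted p = 0.0993).

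The 12 genes with an Slc7 symbol, Slc7a6os included, had 5 rises and 2 falls, where 21.5% of all genes rose and 4.11% fell. Slc7a14, a lysosomal member, rose 1.61-fold from 0.0032, 0.0026 and 0.0032 to 0.0046, 0.0051 and 0.0048 (limma adjusted p = 0.00709), a call that ended after centring on the library median (0.189). Slc7a3, Slc7a4, Slc7a7 and Slc7a8 rose by ratios of 1.26 for Slc7a4 to 1.44 for Slc7a7. Slc7a3 was not called when any library was left out, Slc7a4 without any library other than N40K 3, Slc7a7 without control 2, control 3, N40K 1 or N40K 3, and Slc7a8 without control 2, control 3, N40K 2 or N40K 3. The highest adjusted p ran from 0.0767 for Slc7a7 to 0.136 for Slc7a4. The calls of Slc7a3, Slc7a4 and Slc7a8 also ended under each of the 3 scalings. That of Slc7a7 also ended after centring on the library median (limma adjusted p = 0.0558) and quantile normalization (0.0596). After centring on the library median the log2 change of Slc7a8 was -0.019 (adjusted p = 0.573). The falls were Slc7a6 and Slc7a2, an arginine transporter, which went from 0.007, 0.0085 and 0.0078 to 0.0049, 0.0058 and 0.0051 (limma adjusted p = 0.0182); Slc7a2 lost its call on leaving out control 2, control 3 or N40K 3 (adjusted p up to 0.063). Slc7a5, the large neutral amino acid transporter LAT1, and its partner chain Slc3a2 did not pass: Slc3a2 had means of 0.0303 ± 0.000513 and 0.0311 ± 0.000208 (SD, n = 3), and Slc7a5 0.00213 ± 0.000252 and 0.00183 ± 0.000153. The proton-coupled lysosomal transporter gene Slc36a1 rose 2.42-fold from a mean of 0.00133 to 0.00323 (limma adjusted p = 0.00526), a call that ended after centring on the library median (0.15).

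**Figure D2:**
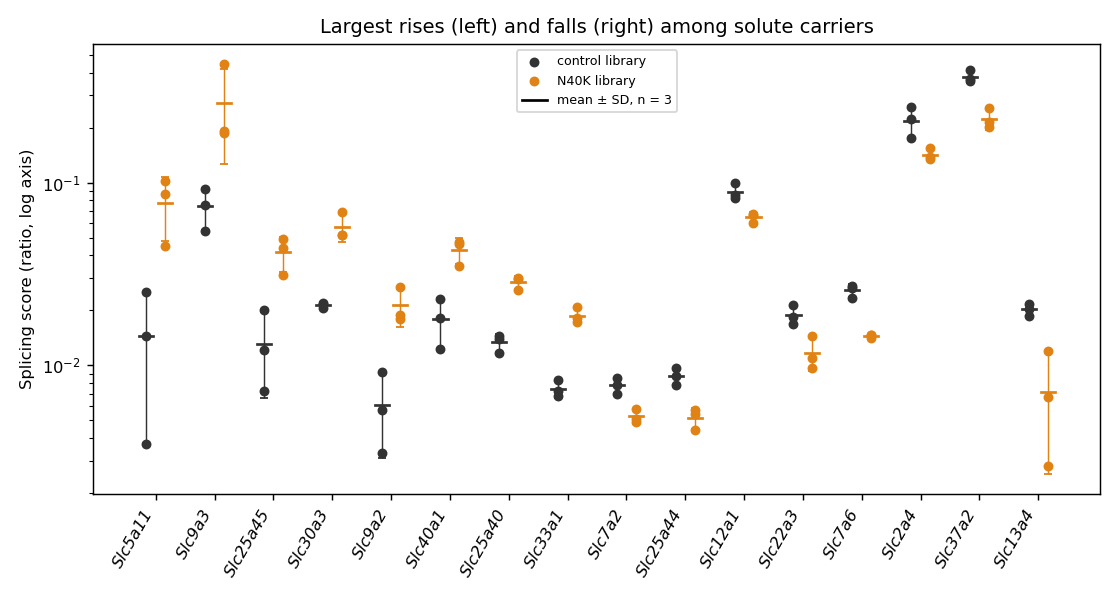
Splicing score of each library on a log axis for the called carriers without overlap that had the 8 largest rises and the 8 largest falls, ordered from the largest rise to the largest fall on the log2(score + 0.01) scale. Points are libraries, bars the mean and SD of 3. Slc5a11 and Slc9a2 show wide control values, while Slc25a40, Slc33a1 and Slc7a6 show close replicates. Slc30a3 shows close control values and a higher value in N40K 3.

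Of 21 genes in the group of sugar and inositol carriers 7 rose (33.3%, beside 21.5% of all genes) and 1 fell (4.76%, beside 4.11%). Their median ratio was 1.12. Without Slc2a4rg-ps, which is not a transporter, 7 of 20 rose and 1 fell, with a median ratio of 1.19. After centring on the library median 5 of the 21 rose and 4 fell. The largest log2 change among all carriers was in Slc5a11, a sodium-coupled inositol transporter, with 0.0145, 0.0251 and 0.0037 in control and 0.1023, 0.0862 and 0.0448 in N40K libraries, a change of 1.88 ± 0.42 (SE, limma adjusted p = 0.0251). Values within each group were widely spread, and the call ended without control 1, control 3, N40K 1 or N40K 2 (highest adjusted p = 0.0781). Slc2a12, a glucose transporter, rose from 0.0042, 0.0055 and 0.0054 to 0.0104, 0.0108 and 0.0098, which is 2.05-fold (limma adjusted p = 0.00382), with the groups well apart. Slc2a13, the proton-coupled inositol transporter of neurons, rose 2.66-fold from 0.0011, 0.0009 and 0.0009 to 0.0023, 0.0028 and 0.0026 (limma adjusted p = 0.00293), a call that ended after centring on the library median (0.108).

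The best known glucose importers gave 1 rise, 1 fall and 1 gene that did not pass. Slc2a3, or GLUT3 of neurons, had 0.0037, 0.0038 and 0.0039 in control and 0.0051, 0.0047 and 0.0049 in N40K libraries, a 1.29-fold rise (limma adjusted p = 0.0144). It was not called without control 1 or control 2 (highest adjusted p = 0.0576), and after centring on the library median the log2 change was -0.02 (0.723). Slc2a1, or GLUT1, had means of 0.0031 ± 0.000265 and 0.00343 ± 0.000289 (SD, n = 3), with overlap. Slc2a4, the insulin-regulated GLUT4, fell from 0.1746, 0.2219 and 0.2599 to 0.1385, 0.1348 and 0.1539, a ratio of 0.651 (limma adjusted p = 0.0442), and this call ended without any library other than control 1 (highest adjusted p = 0.121). Slc45a4 rose 2.21-fold and Slc45a1 1.81-fold; Slc45a1 encodes a sugar transporter of the brain. Slc5a10 had the highest ratio of all carriers, 9.09, from a single value: N40K 2 had 1.7655 while N40K 1 and N40K 3 had 0.1015 and 0.051, and it did not pass (limma adjusted p = 0.424).

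Monocarboxylate carriers bring lactate and pyruvate into neurons. Of 18 mono- and dicarboxylate genes 3 rose (16.7%, beside 21.5% of all genes) and 2 fell (11.1%, beside 4.11%). Their median ratio was 0.99, and centring on the library median gave 1 rise and 3 falls. Slc16a14, whose substrate is little known, rose from 0.0161, 0.0123 and 0.0142 to 0.0265, 0.0267 and 0.0336, a log2 change of 0.68 ± 0.10 (SE, limma adjusted p = 0.00794), with no overlap. Slc16a1, or MCT1, rose 1.75-fold from 0.0023, 0.0038 and 0.0024 to 0.0055, 0.0051 and 0.0043 (limma adjusted p = 0.0332), a call that ended without control 1, control 3, N40K 1 or N40K 2 (highest adjusted p = 0.107) and under each of the 3 scalings. Slc16a7, the neuronal MCT2, rose 2.19-fold from 0.0006, 0.0005 and 0.0005 to 0.001, 0.0011 and 0.0014 (limma adjusted p = 0.0144). These values lie within a few steps of the last decimal, it was not called without control 2 or control 3 (highest adjusted p = 0.0578), and after centring on the library median the log2 change was -0.05 (0.13).

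The dicarboxylate carrier gene Slc13a3 fell from 0.0043, 0.0036 and 0.0041 to 0.0023, 0.0028 and 0.0024, a ratio of 0.625 (limma adjusted p = 0.0108). Slc13a4, a sulfate transporter, had the lowest ratio among the falls, 0.354, with 0.0186, 0.0204 and 0.0217 in control and 0.012, 0.0028 and 0.0067 in N40K libraries (limma adjusted p = 0.0267). Its N40K values were far apart, and the call ended without any control library or N40K 3 (highest adjusted p = 0.0874).

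Nucleotide sugar carriers feed glycosylation in the Golgi, and the Slc37 family carries sugar phosphates. Of 9 genes 3 rose (33.3%, beside 21.5% of all genes) and 1 fell (11.1%, beside 4.11%), with a median ratio of 1.41. After centring on the library median 1 rose and 2 fell. Among the 5 Slc35a genes the rise was in Slc35a1, the carrier of CMP-sialic acid, from 0.0085, 0.0072 and 0.0072 to 0.0114, 0.0135 and 0.0112 (limma adjusted p = 0.0149). It was not called without control 2 or control 3 (highest adjusted p = 0.0596) and after quantile normalization (0.0507). Slc35a2, the UDP-galactose carrier, had means of 0.0155 ± 0.00361 and 0.0176 ± 0.00173 (SD, n = 3) with overlap. Of the 16 Slc35 genes with other letters, which the rule leaves out, 3 rose (18.75%, beside 21.5% of all genes). Their median ratio was 1.15, beside 1.11 for all genes.

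In the Slc37 family Slc37a3 rose 1.64-fold (limma adjusted p = 0.00379) and Slc37a4, the glucose-6-phosphate carrier of the endoplasmic reticulum, 1.41-fold (0.0193). The call of Slc37a3 ended after centring on the library median (0.201), and that of Slc37a4 without any control library or N40K 2 (highest adjusted p = 0.0682). Slc37a2 fell from 0.3677, 0.3613 and 0.4117 to 0.2568, 0.2012 and 0.214, a log2 change of -0.74 ± 0.12 (SE, limma adjusted p = 0.0102), with no overlap.

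The remaining groups were small or held few calls. Slc33a1, which brings acetyl-CoA into the endoplasmic reticulum, rose from 0.0068, 0.0072 and 0.0083 to 0.0172, 0.0181 and 0.0208, which is 2.52-fold and a log2 change of 0.72 ± 0.07 (SE, limma adjusted p = 0.00293). Its groups were far apart. Both members of the sodium phosphate family Slc20 rose: Slc20a1 from 0.0951, 0.0942 and 0.0927 to 0.1468, 0.1395 and 0.1469 (limma adjusted p = 0.00477), and Slc20a2 1.43-fold (0.00883), the latter call ending after centring on the library median (0.226) and quantile normalization (0.126). Slc46a3, a lysosomal transporter, rose 1.76-fold (0.00745) from a mean of 0.0443 to 0.0781.

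Among organic ion carriers Slc22a3, or OCT3, which clears monoamines, fell from 0.0185, 0.0214 and 0.0168 to 0.011, 0.0097 and 0.0145 (limma adjusted p = 0.0357). Slc22a3 overlaps Plg on the opposite strand, and its call ended without any library other than N40K 3 (highest adjusted p = 0.102). Slc22a23 rose 1.5-fold at scores from 0.0016 to 0.0028 (limma adjusted p = 0.0185); the call ended without any control library or N40K 3 (highest adjusted p = 0.0696), and after centring on the library median the log2 change was -0.03 (0.466). The vesicular monoamine carrier gene Slc18a2 had 0.0194, 0.0234 and 0.0155 against 0.0291, 0.0352 and 0.026 and did not pass (limma adjusted p = 0.0567). The other rises were in Slc2a6, Slc4a1ap, Slc4a5, Slc19a1, Slc29a2 and Slc36a4, with ratios from 1.44 for Slc29a2 to 2 for Slc4a1ap. Slc2a6 was not called without any control library, Slc4a1ap also not without N40K 3, Slc19a1 without any library but N40K 1, and Slc4a5 without any but N40K 3. Slc29a2 was not called without any library but control 3, and Slc36a4 without control 1, control 2, N40K 1 or N40K 2. The highest adjusted p ran from 0.0648 for Slc2a6 to 0.144 for Slc4a5. The calls of Slc4a5, Slc29a2 and Slc36a4 also ended under each of the 3 scalings. That of Slc4a1ap also ended after centring on the library median (limma adjusted p = 0.133).

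**Figure D3:**
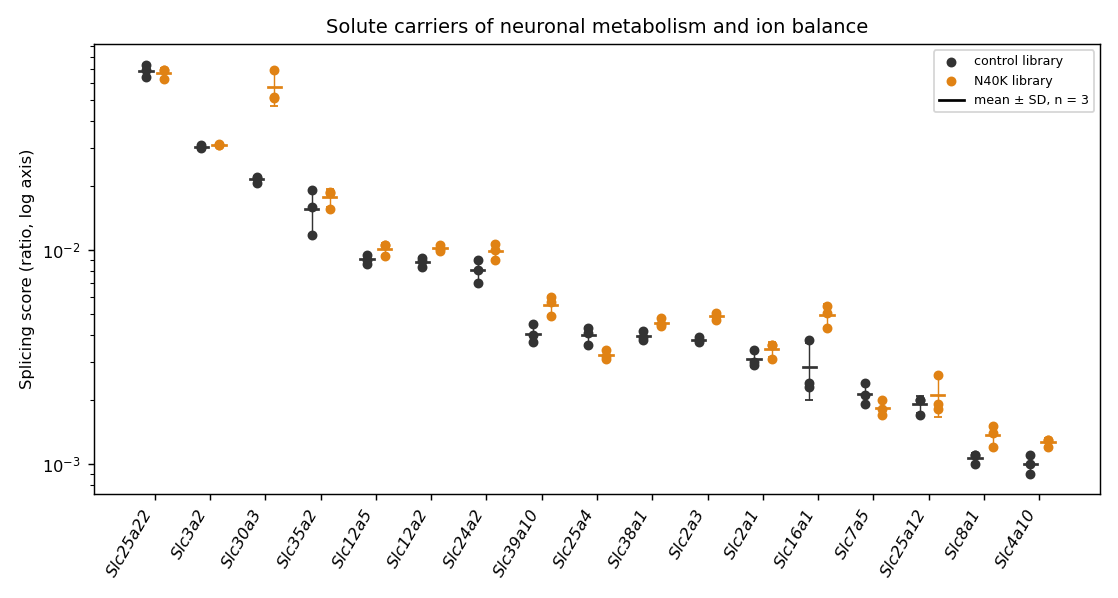
Splicing score of each library on a log axis for 17 carriers of neuronal metabolism and ion balance, chosen by name and ordered by mean control score. Points are libraries and bars the mean and SD of 3. Slc30a3 has the largest ratio, 2.69. Slc16a1, Slc39a10 and Slc2a3 were also called higher without overlap, at 1.75, 1.36 and 1.29. The rest did not pass, some of them without overlap.

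Gene length was set beside score and change in the carriers and in all genes, as a description with no test of the difference between them. Lengths came from the GENCODE M21 annotation for 238 of the 239 carriers. Across these genes, which are not independent replicates, longer genes had lower mean scores (Spearman rho = -0.57, and -0.57 over 14911 genes) and higher ratios (0.22, and 0.39). With all genes cut into 4 equal bins by length, 5 of 49 carriers in the shortest bin rose (10.2%, beside 7.03% of all genes), and in the longest bin 16 of 54 (29.6%, beside 41.7%). The carriers that rose had a median length of 38.3 kb and those that fell of 40.2 kb, beside 24.9 kb for those that did not pass. Among all genes the medians were 58.3 kb for rises and 14.3 kb for falls. Of the carriers with a known length 48.3% overlap another gene, beside 59.2% of all genes. Where genes overlap, a read may belong to the neighbour, and use of strand in the score is not stated.

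**Figure D4:**
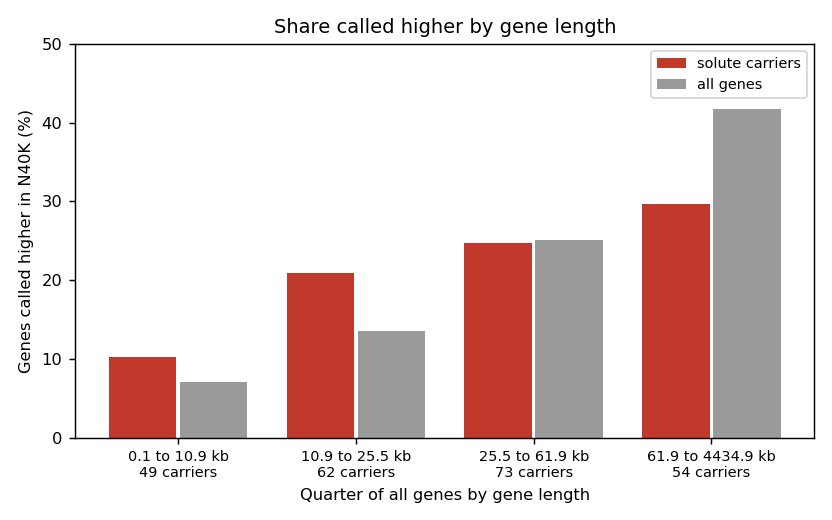
Share of genes called higher in N40K neurons, in percent, within 4 equal bins of all genes by gene length in kb, for solute carriers (red) and all genes (grey). The share of carriers goes from 10.2% in the shortest to 29.6% in the longest bin, and all genes from 7.03% to 41.7%.

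Other genes of solute transport, on lists chosen by role, gave 10 rises and 2 falls among 42 genes with a score. Over all genes 21.5% rose and 4.11% fell. The median ratio of the 42 was 1.13, beside 1.11 for all genes. Whether the counts of these lists differ from the shares of all genes was not tested. Of 12 pumps for sodium, potassium and calcium 3 rose: the plasma membrane calcium pump genes Atp2b1 (1.31-fold, limma adjusted p = 0.0148) and Atp2b2 (1.44-fold, 0.0173), and the Golgi pump gene Atp2c1, from 0.0022, 0.002 and 0.002 to 0.0036, 0.0038 and 0.0044 (0.00492). Of 5 scored kinases that control the Slc12 cotransporters, Wnk4 rose 1.63-fold (limma adjusted p = 0.0239). Emb, a partner of monocarboxylate carriers, rose 1.62-fold (0.0312), and the copper pump gene Atp7a 1.68-fold (0.00406). Among 12 scored genes of mitochondrial import, Sfxn2, Sfxn4, Sfxn5 and Vdac3 rose and Sfxn1 and Vdac1 fell. Sfxn4 had 0.0331, 0.0274 and 0.0294 against 0.0675, 0.0592 and 0.0615 (limma adjusted p = 0.00332). Vdac1 had 0.0008 in every control and 0.0006 in every N40K library (0.043), near the last decimal of the score. Centring on the library median moved the median change of all genes by -0.13. The log2 changes of Atp2b1 (0.097), Atp2b2 (0.052), Vdac3 (0.089) and Sfxn5 (0.12) were smaller in size, and those of the other rises larger. Calls of these genes under the scalings and without each library are not given here. The rule leaves out 24 Slc1a, Slc6a, Slc17a and Slc32a genes. Of these 8 rose (33.3%, beside 21.5% of all genes) and 0 fell (beside 4.11%). Their median ratio was 1.23. At an unadjusted p under 0.05 (limma) 11 rose and 1 fell, beside 31.2% and 7.32% of all genes. Whether their share differs from that of all genes was not tested.

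**Figure D5:**
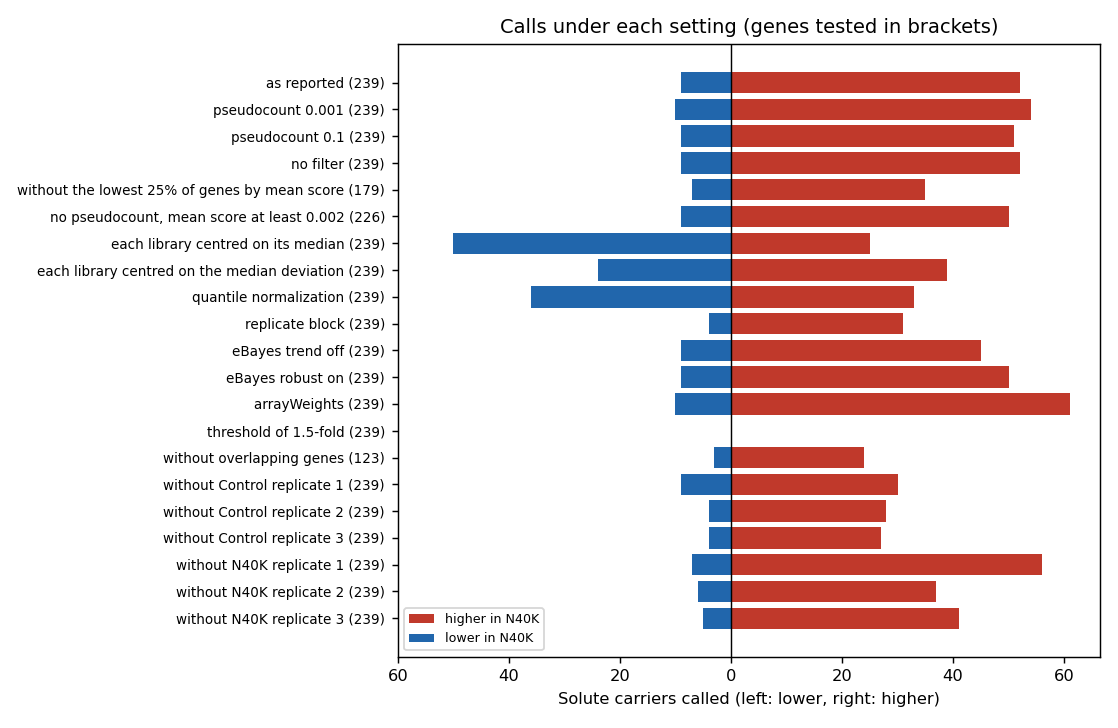
Number of solute carriers called higher (red, to the right) and lower (blue, to the left) in N40K neurons under each setting, with the number of carriers tested in brackets. As reported there are 52 and 9. Centring each library on its median gives 25 and 50, beside 1531 and 2883 of all 15705 genes, and the threshold of 1.5-fold gives none.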

How the data were processed

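RNA of 6 libraries, 3 of control and 3 of N40K neurons, was analysed. Libraries were stranded, from poly(A)-selected RNA, with paired reads of 100 bases, per the labels' protocols. Per the submitters' processing notes, the tools were bedtools 2.16.1, CASAVA, BWA and STAR and the build mm9, in no stated order. The authors deposited 1 table of scores, a linear ratio per gene with 4 decimals; for its formula, its filters and its strandedness, details are not given in these sources.

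Log2(score + 0.01) of all 15705 genes was fitted in R 4.3.3 by limma 3.58.1, moderated by eBayes with its trend option. Tests were 2-sided, p-values were adjusted by Benjamini-Hochberg over all genes, and the threshold was 0.05. The filter (a score above 0 in at least 3 libraries) removed 0 genes, 0 columns were identical and 0 were left unused. Fold and ratio refer to mean scores; log2 changes understate those of low scores. The steps were tested on simulated data.

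Members and lists were chosen with earlier results of these data known. By rule 50 genes were named: the 8 largest rises and 8 largest falls without overlap, up to 2 called genes in each of 14 families, and 18 fixed by name; others were chosen after their values were seen. A few named genes are not reported here. GENCODE M21, on another build than mm9, was matched by Ensembl identifier, so no coordinates are printed. Some entries had no such identifier. Same-numbered libraries were checked for pairing. Alternatives were other pseudocounts, filters, scalings, eBayes settings, arrayWeights, a 1.5-fold threshold, genes without overlaps, a replicate block and each library left out.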

Additional observations from a re-analysis of the deposited data

How the results depend on the processing

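Of the 52 rises and 9 falls, settings other than the scalings moved the counts more than 1.5 times in these cases: the replicate number as a block gave 31 and 4, genes without an overlapping neighbour gave 24 and 3 of 123 tested, and limma's test against a threshold of 1.5-fold gave 0 and 0 (7 and 1 at an unadjusted p under 0.05, lowest adjusted p = 0.201). Leaving out a library gave 27 to 56 rises and 4 to 9 falls, with 30, 28 and 27 rises without controls 1, 2 and 3, 4 falls without control 2 or control 3 and 5 falls without N40K 3. The scalings gave 25 rises and 50 falls (centred on the median), 39 and 24 (median deviation) and 33 and 36 (quantile). Over all 15705 genes they gave 1531 and 2883, 2235 and 1518, and 2022 and 1883. The cause was not tested. With other pseudocounts, filters, eBayes settings and arrayWeights rises were 35 to 61 and falls 7 to 10. Same-numbered libraries did not deviate together (correlations of -0.0712, 0.0376 and -0.0201), so the block pairs samples only by number.

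Among the genes named by rule, those that turned in direction had small log2 changes; of the other called carriers, Slc7a8 (-0.019) and Slc30a9 (-0.0023) turned, both when centred on the median. Centred on the median, Slc16a7 had -0.046, Slc22a23 -0.031, Slc2a1 -0.094, Slc2a3 -0.020, Slc12a2 -0.027, Slc12a5 -0.050, Slc25a12 -0.11, Slc4a10 -0.096, Slc8a1 -0.092, Slc38a1 -0.070, Slc3a2 -0.10 and Slc35a2 -0.010. Centred on the median deviation, Slc2a1 had -0.029, Slc25a12 -0.042, Slc4a10 -0.031, Slc8a1 -0.027, Slc38a1 -0.0048 and Slc3a2 -0.039. After quantile normalization, Slc2a1 had -0.042, Slc12a2 -0.015, Slc12a5 -0.038, Slc25a12 -0.036, Slc4a10 -0.0050, Slc8a1 -0.0014, Slc38a1 -0.026, Slc3a2 -0.10 and Slc35a2 -0.015. Leaving out a library, Slc25a22 ran from -0.076 to 0.0087, with 0.0084 without control 2 and 0.0087 without N40K 2. Slc25a12 ran from -0.0060 without N40K 3 to 0.041. Centred on the median, Slc2a1, Slc25a12 and Slc4a10 passed as falls (limma adjusted p = 0.0345, 0.0115 and 0.0354).

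Read depth is unknown, and scores near 0.001 are limited by their last decimal.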
